A study of Mus musculus with 8 samples.

Results

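The genes studied here have products that write, copy, read or erase DNA methylation and the polycomb mark, and were followed in thymic epithelial cells (TEC) from the fetus to the adult. The 10 genes, of 27514 found in the gene lists of all libraries, were Dnmt1, Dnmt3a, Dnmt3b, Uhrf1, Ezh2, Eed, Suz12, Tet1, Tet2 and Tet3, taken by their symbols. The 8 libraries were droplet single-cell RNA libraries of thymus cells from wild-type (WT) C57 B6 (CD45.2) mice that had received no treatment. Viable cells were sorted as EpCAM+ CD45-. At E13.5 total TEC were taken, whereas the cortical TEC (cTEC) samples from E15.5 on (E17.5, newborn or NB, and adult) were the Ly51+ UEA-1- fraction, and adult medullary TEC (mTEC) the Ly51- UEA-1+ fraction. There was 1 library for each stage below the adult and 2 for each adult lineage. Data set 1 held E13.5, E15.5, NB and replicate 1 of both adult groups, and data set 2 held E17.5 and replicate 2 of both. The sources used here do not say how many animals a library pooled. Per the paper, newborn and adult thymi were digested with Liberase and enriched on Percoll, whereas embryonic thymi had trypsin and no enrichment. Cell isolation and fetal or postnatal stage therefore cannot be told apart in the age trends below.

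DNA methylation of CpG sites is copied at each round of replication. Uhrf1 binds the half-methylated site behind the fork and brings in Dnmt1, the maintenance methyltransferase, whereas Dnmt3a and Dnmt3b place new methyl groups. Tet1, Tet2 and Tet3 oxidise methylcytosine and so start its removal. Ezh2 is the catalytic subunit of polycomb repressive complex 2 (PRC2), which methylates histone H3 at lysine 27, and Eed and Suz12 are the core subunits without which it does not work. Ezh1 is the less active alternative to Ezh2.

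Of 28334 deposited cells, 25750 passed limits on mitochondrial counts and detected genes, and 23261 of these fell in clusters that did not meet the marker rule for another cell type and are called epithelial-like here. Per library this left between 493 and 6188 cells and between 2177398 and 68410550 unique molecular identifiers (UMIs, 1 for each captured transcript). Adult cTEC replicate 1 was the shallowest. Epcam was at 287 to 999.6 CPM (UMIs of a gene scaled to a common total per library) in every library, and the cortical gene Psmb11 was at 239 to 1613 CPM in the cortical line against 3.85 and 8.57 CPM in adult mTEC. Aire, the medullary regulator, was at 435 and 399 CPM in adult mTEC and at 9.27 and 2.74 CPM in adult cTEC. In adult cTEC replicate 1, 59 cells fell in a cluster that held mostly mTEC (523 cells). A cluster of 2162 E17.5 cells led by haemoglobin genes was left out, although it carried Epcam at 360 CPM and Psmb11 at 1035 CPM, and it is not named here. The 10 genes differed little between it and the other E17.5 cells, with Uhrf1 at 14.8 against 19.9 CPM and Ezh2 at 23.6 against 24.8 CPM. With it kept, every count of genes past the threshold given below for the 10 stayed the same. A cluster of 60 E13.5 cells led by Hhex, Nkx2-1, Pax8 and Iyd met no marker list and was kept. It had Ezh2 at 340.4 CPM against 173.1 CPM in the other E13.5 cells and Uhrf1 at 120.5 against 136.2 CPM, and without it the counts for the age trends, for cycling against resting cells and for their interaction also stayed the same.

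Markers of other cell types differed between the cortical libraries. The cluster that held 416 of the 493 cells of adult cTEC replicate 1 was led by Dcn, and Dcn was among the leading genes of the cluster with 468 of the 528 cells of replicate 2. The 6 mesenchymal markers summed to between 6.57 and 32.6 CPM in the cortical libraries below the adult, to 505.9 and 317.8 CPM in adult cTEC and to 94.9 and 65.8 CPM in adult mTEC. Dcn made up 499 and 312 CPM of the adult cTEC sums, while 2 of the 6 markers, Pdgfra among them in both, were at 0 in each library. The 5 myeloid markers summed to at most 3.59 CPM below the adult, to 237.7 and 31.6 CPM in adult cTEC, mostly Lyz2 (197 and 13.9 CPM), and to 434.9 and 555.3 CPM in adult mTEC. The 5 endothelial markers summed to at most 11.9 CPM below the adult and to 69.5 and 11.96 CPM in adult cTEC, and the 11 thymocyte markers to at most 21.2 CPM and to 48.2 and 113.8 CPM. Erythroid markers summed to 87.0 CPM at E17.5 and to at most 14.8 CPM in the other cortical libraries, and parathyroid markers to 129.1 CPM at E13.5, 80.7 CPM at E17.5 and at most 7.88 CPM in the others. The 6 mTEC markers summed to 706.5 CPM at E13.5, mostly Krt5 (675 CPM), to between 117.1 and 123.4 CPM from E15.5 to NB, to 639.8 and 361.4 CPM in adult cTEC and to 2766 and 1945 CPM in adult mTEC. The part of these cells or transcripts in the age slopes and the lineage differences below was not tested.

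A cell with no UMI of Mki67 and none of Top2a, which mark proliferating cells, is called resting here and any other cell cycling. By this rule 69.9%, 43.5%, 38.2% and 21.9% of cells were cycling at the 4 stages from E13.5 to NB, 16.02% and 15.53% in adult cTEC, and 16.7% and 34.1% in adult mTEC. Cycling cells were also deeper in every library, with a median of 8202 UMIs against 5688 at E13.5 and 15032 against 9861 in adult mTEC replicate 2. A resting cell may therefore be a cycling cell whose transcripts were missed.

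The letters TTTCCCGC, TTTCGCGC, TTTGGCGC and TTTGCCGC, the core that E2F factors of the cell cycle are known to bind, were searched on both strands in the RefSeq promoters (GRCm38.p6, 250 bases before to 50 after each annotated start). All 10 genes matched the promoter table. At least 1 of these letter strings was present for Uhrf1, Dnmt1, Ezh2 and Suz12, that is 40.0% of the 10 genes against 2.60% of the 27025 genes in the table, and for 6 of the 11 replication genes with an entry (54.5%). The stretches are shown because these 4 genes were higher in cycling cells below by edgeR, although the call for Suz12 was lost under some settings and Eed, without such a match, passed under others. Capitals mark the match. In Dnmt1 the match shown lies on the opposite strand, and the same promoter held another, TTTGGCGC on the gene's own strand, beginning 33 bases past the start and not shown.
Uhrf1, chr17:56304108-56304155, plus strand: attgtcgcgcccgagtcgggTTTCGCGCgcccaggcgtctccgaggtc
Dnmt1, chr9:20952815-20952862, minus strand: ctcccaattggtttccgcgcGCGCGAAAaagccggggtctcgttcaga
Ezh2, chr6:47595020-47595047, minus strand: atggcgattgggttgctgcgTTTGGCGC
Suz12, chr11:79992867-79992914, plus strand: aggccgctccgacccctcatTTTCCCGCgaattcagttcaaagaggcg
In Uhrf1 the match was at 1 of 2 annotated starts, and in Dnmt1 at 1 of 3, so genes with more starts had more chances to hold one. In Ezh2 it lay just past the start. The motif was chosen with the expression results known. A match is a run of letters and no evidence of binding, and none of the promoters of Dnmt3a, Dnmt3b, Eed, Tet1, Tet2 and Tet3 held these letters in this window.

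The first question was how the level of each enzyme changed in the cortical line with age. The largest changes were those of Uhrf1, Ezh2 and Dnmt1. Values are given in order of age for the 4 stages below the adult (E13.5, E15.5, E17.5 and NB), then for adult cTEC replicates 1 and 2. Uhrf1 was at 135.7, 49.9, 19.9 and 15.8 CPM over the 4 stages, and at 5.10 and 9.96 CPM in the adult. The adult values rest on 11 and 40 UMIs. Dnmt1 was at 143.4, 58.0, 21.7 and 35.3 CPM over the stages and at 23.6 and 15.7 CPM in adult cTEC. Ezh2 was at 178.5, 53.2, 24.8 and 30.4 CPM and at 15.8 and 23.4 CPM in adult cTEC. For all 3 genes E13.5 stood above every other library of the series, with counting intervals that did not overlap theirs.

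**Figure D1:**
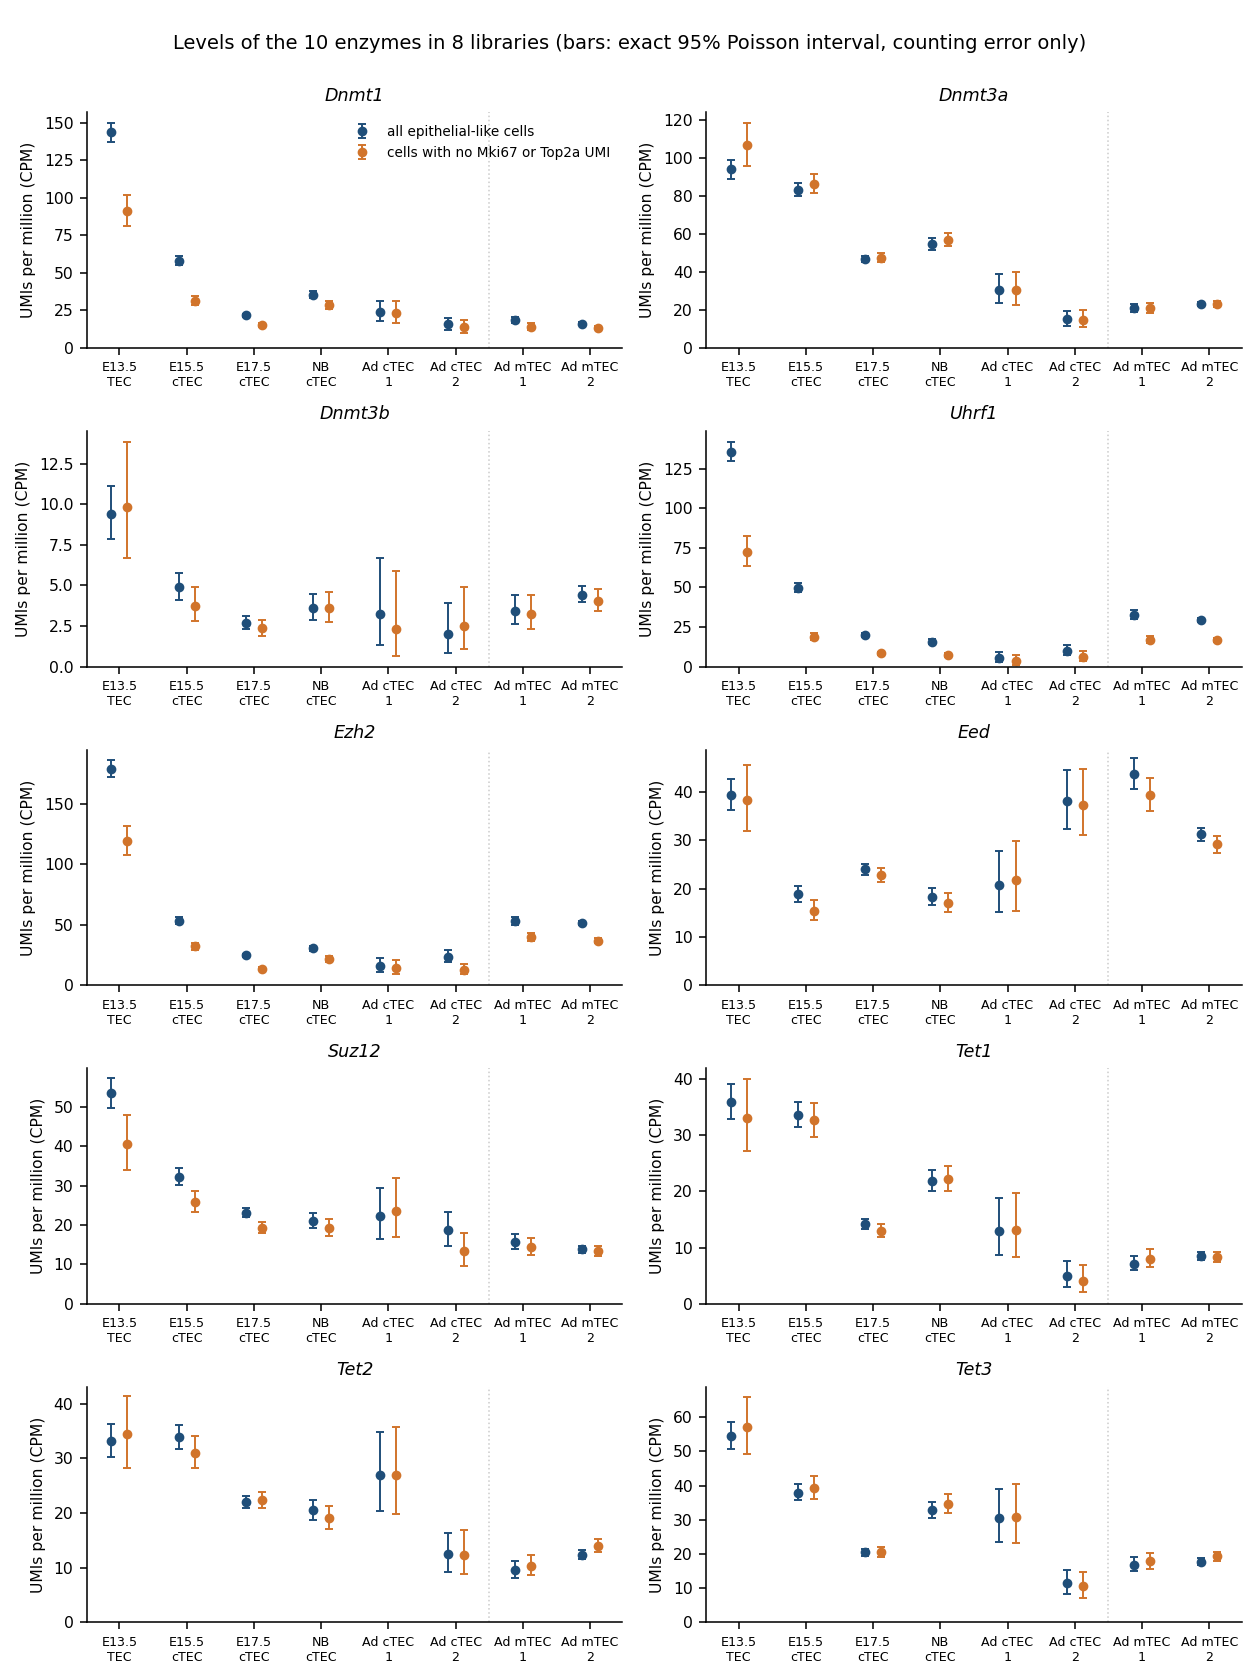
Level of each of the 10 genes (vertical axis, CPM from 0) in the 8 libraries (horizontal axis), over all epithelial-like cells (blue) and over resting cells (orange), with exact 95% Poisson intervals for counting error. E13.5 is the highest library over all cells for 8 genes, with Uhrf1 falling from 135.7 to 5.10 CPM, while Eed is highest in adult mTEC replicate 1 (43.8 CPM).

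A slope on stage rank (E13.5 to adult, 5 steps) was fitted over the 6 libraries with a term for the data set, by edgeR's quasi-likelihood test across 14329 genes. Uhrf1 fell by 0.98 ± 0.12 (SE) per step on the log2 scale (adjusted p = 0.0118), Ezh2 fell by 0.68 ± 0.15 (adjusted p = 0.0460) and Dnmt1 fell by 0.55 ± 0.10 (adjusted p = 0.0299). These 3 of 10 genes passed, all downward, where 2.76% of all tested genes passed in that direction. All 10 slopes were negative, with a median of −0.38 against −0.00 over all genes. The fall was uneven. Between E13.5 and E15.5 the levels differed 2.72-fold for Uhrf1, 3.35-fold for Ezh2 and 2.47-fold for Dnmt1, all within data set 1.

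Within data set 2 the 2 cortical libraries lay closer together. E17.5 was 1.996-fold above adult cTEC replicate 2 for Uhrf1, 1.38-fold for Dnmt1 and 1.06-fold for Ezh2. In data set 1 alone (4 libraries) the slopes were −1.08 for Uhrf1 (adjusted p = 0.0239 by edgeR), −0.80 for Ezh2 (0.0412) and −0.60 for Dnmt1 (0.0533). The calls rested on adult cTEC replicate 1. Without it no member passed and 10 genes in all did, with slopes of −0.86 (Uhrf1, adjusted p = 0.1199), −0.59 (Ezh2, 0.295) and −0.52 (Dnmt1, 0.216). Without E15.5, or without NB, Uhrf1 was the only one of the 10 to pass, with Ezh2 at −0.73 and −0.69 and Dnmt1 at −0.59 and −0.55. The call for Dnmt1 was also lost without E17.5 (−0.59, adjusted p = 0.0562 by edgeR) or adult cTEC replicate 2 (−0.60, 0.0514). These slopes were no smaller than those over all 6 libraries. At E13.5, where total TEC were taken, stage and sort cannot be told apart, and without it Ezh2 was at −0.41 (0.116) and Dnmt1 at −0.39 (0.0751), while Uhrf1 still passed and Dnmt3a did (−0.59, 0.0421).

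The other writers and the erasers did not pass over all 6 libraries. Dnmt3a, a de novo methyltransferase, was at 94.0, 83.2, 46.7 and 54.7 CPM over the stages and at 30.6 and 15.2 CPM in adult cTEC, a slope of −0.45 ± 0.12 (adjusted p = 0.0706 by edgeR). Its order of levels followed the order of stages except that NB was above E17.5. Dnmt3b was at 9.39 CPM at E13.5 and between 1.99 and 4.88 CPM in the other cortical libraries, with 8 UMIs or fewer in each adult cTEC library. Tet1 had a slope of −0.41 (0.0835), from 36.0 CPM at E13.5 and 33.7 at E15.5 to 12.97 and 4.98 in adult cTEC. Tet3 had a slope of −0.23 (0.149) and Tet2 of −0.18 (0.279). For both Tet genes the 2 adult cTEC libraries lay far apart, at 30.6 and 11.5 CPM for Tet3 and at 26.9 and 12.5 CPM for Tet2. By DESeq2 in place of edgeR, 6 of the 10 genes passed, with Dnmt3a, Suz12 and Tet1 added, where 8.49% of all genes passed downward by that tool.

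The other core subunits of PRC2 did not pass by edgeR. Suz12 was at 53.5 CPM at E13.5, 32.3 at E15.5 and between 18.7 and 23.1 CPM in the 4 later libraries (slope −0.30 ± 0.08, adjusted p = 0.0751 by edgeR). Eed was at 39.4, 18.9, 23.99 and 18.2 CPM over the 4 stages and at 20.8 and 38.1 CPM in adult cTEC, a slope of −0.12 ± 0.12 (0.551). Adult cTEC replicate 2 and E13.5 did not differ beyond counting error for Eed, while adult cTEC replicate 1 was as low as E15.5.

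Ezh2 and Ezh1 were next set side by side, since they fill the same place in PRC2. Ezh1 was at 7.18, 9.06, 10.7 and 11.7 CPM over the 4 stages and at 14.4 and 10.96 CPM in the adult cTEC libraries (slope 0.19 ± 0.10, adjusted p = 0.247 by edgeR). The share of Ezh2 in the summed UMIs of both genes was 96.1% (exact 95% binomial interval 95.3 to 96.8), 85.5% (83.7 to 87.1), 69.8% (68.0 to 71.6) and 72.3% (69.3 to 75.0) over the 4 stages. In adult cTEC it was 52.3% (39.5 to 64.9, from 65 UMIs) and 68.1% (59.7 to 75.8, from 138 UMIs), and in adult mTEC 89.4% (87.3 to 91.3) and 87.3% (86.2 to 88.3). In resting cells the same shares were 92.6%, 77.1%, 54.6% and 63.9% from E13.5 to NB, 47.1% and 53.2% in adult cTEC, and 84.0% and 82.3% in adult mTEC. Capture may differ between the transcripts of the 2 genes and was not measured, so the shares can be followed between libraries but do not rank the 2 genes.

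**Figure D2:**
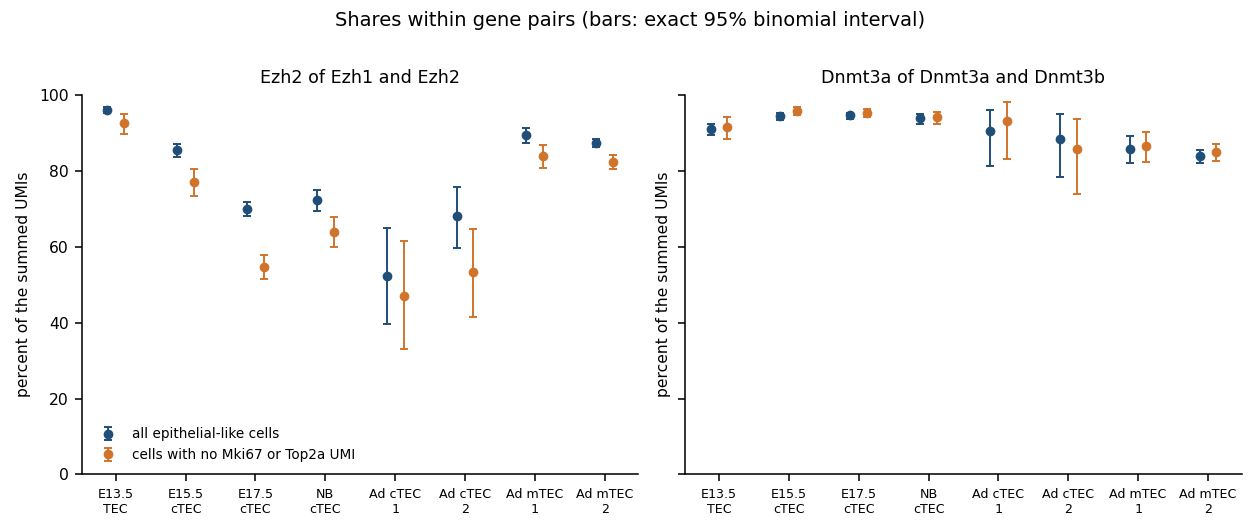
Share of Ezh2 in the UMIs of Ezh1 and Ezh2 (left) and of Dnmt3a in those of Dnmt3a and Dnmt3b (right), in percent, in the 8 libraries over all cells (blue) and resting cells (orange), with exact 95% binomial intervals. The Ezh2 share runs from 96.1% at E13.5 to 52.3% in adult cTEC replicate 1 and is 89.4% and 87.3% in adult mTEC, while the Dnmt3a share lies between 83.9% and 94.6% over all cells and between 84.99% and 95.8% in resting cells.

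The Dnmt3a share in the UMIs of Dnmt3a and Dnmt3b had a narrower range, from 83.9% (82.1 to 85.5) in adult mTEC replicate 2 to 94.6% (93.8 to 95.3) at E17.5. Among the Tet genes, the Tet1 share was 25.1% to 31.9% in the 4 libraries below the adult and 17.2% to 22.1% in the 4 adult libraries. The Tet3 share was 36.0% to 50.2% over the 8 libraries, highest in adult mTEC replicate 1. Uhrf1 made up 64.8% (63.1 to 66.5) of the UMIs of Uhrf1 and Uhrf2, its close relative, at E13.5 and 10.1% (5.15 to 17.3) and 19.0% (14.0 to 25.0) in adult cTEC. Uhrf2 itself was at 73.6 CPM at E13.5 and between 39.4 and 50.6 CPM in all other libraries, with a slope of −0.14 (adjusted p = 0.300 by edgeR).

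Because the share of cycling cells fell over the same stages, the trend was fitted again in resting cells alone. In resting cells Uhrf1 was at 72.4, 18.96, 8.25 and 7.10 CPM over the 4 stages and at 3.44 and 6.19 CPM in adult cTEC, where it rests on 6 and 20 UMIs. Its slope was −0.89 ± 0.16 (adjusted p = 0.0379 by edgeR), close to the value over all cells. It was the only one of the 10 genes that passed, where 0.956% of the 13181 genes tested passed downward. Ezh2 was at 118.8, 32.1, 13.6 and 21.7 CPM and at 13.7 and 12.7 CPM in adult cTEC (slope −0.60 ± 0.14, adjusted p = 0.0759). Dnmt1 was at 90.8, 31.2, 15.2 and 28.5 CPM and at 22.9 and 13.6 CPM in adult cTEC (slope −0.37 ± 0.11, 0.126). Dnmt3a was at 106.8, 86.4, 47.6 and 56.9 CPM and at 30.4 and 14.8 CPM in adult cTEC (slope −0.48 ± 0.12, 0.0782), so its levels in resting cells were close to those over all cells. Without E13.5 it passed (−0.60, 0.0475 by edgeR). The slopes of Eed, Suz12, Dnmt3b and the 3 Tet genes lay between −0.39 (Tet1) and −0.083 (Eed).

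**Figure D3:**
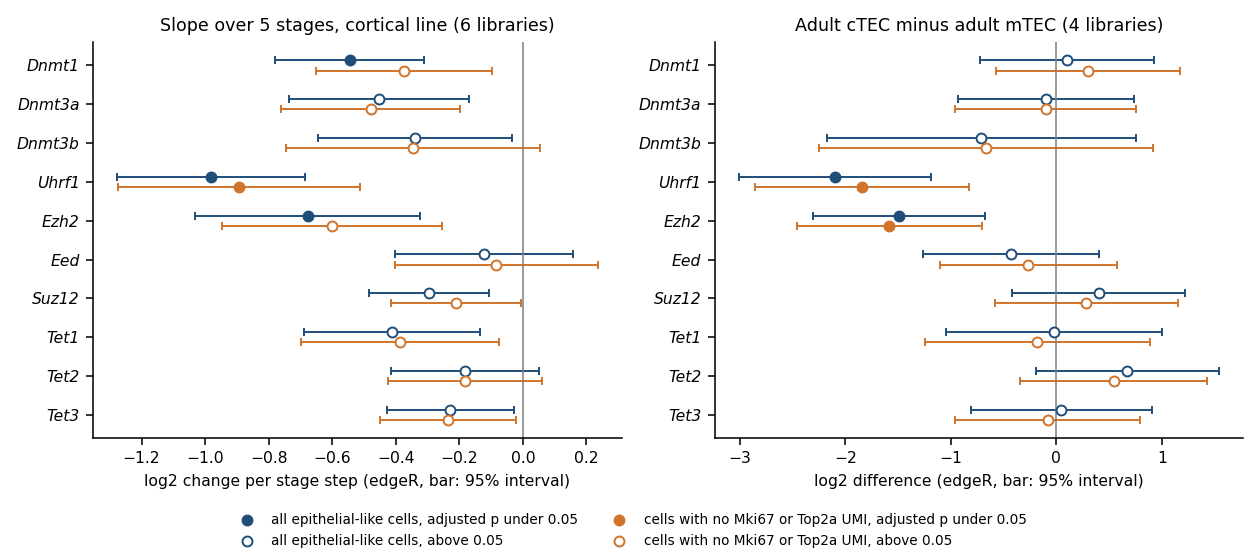
Slope per stage step in the cortical line (left, log2 scale) and difference of adult cTEC minus adult mTEC (right, log2 scale) for the 10 genes, from edgeR, over all cells (blue) and resting cells (orange). Bars are 95% intervals and filled points passed an adjusted p of 0.05. All slopes lie below 0, with Uhrf1 lowest at −0.98 and −0.89, and on the right Uhrf1 and Ezh2 stand apart, at −2.10 and −1.49 over all cells.

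The resting call for Uhrf1 was lost without adult cTEC replicate 1 (slope −0.84, adjusted p = 0.287 by edgeR), without E15.5 (0.0897), without NB (0.0993) and without E13.5 (−0.62, 0.0686). With a stricter rule, no UMI of any of 20 cycle genes, which left 75 cells at E13.5, Uhrf1 was at 34.6, 10.1, 8.02 and 5.02 CPM over the stages and at 3.19 and 4.75 CPM in adult cTEC (3 and 6 UMIs, slope −0.70, adjusted p = 0.0522). Under that rule Dnmt3a (−0.53, 0.0372) and Tet1 (−0.54, 0.0466) passed in place of Uhrf1. Dnmt3a was then at 147.2, 94.0, 49.3 and 61.1 CPM over the stages and at 33.0 and 13.47 CPM in adult cTEC, so E13.5 was higher under the stricter rule than over all cells.

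The share of cells with at least 1 UMI was read after thinning every cell to 2000 UMIs, which left out between 0 and 118 cells per library. It left out 65 of the 493 cells of adult cTEC replicate 1, whose shares cover its deeper cells, and 118 of 5609 of adult mTEC replicate 2. Ezh2 was seen in 28.2% (exact 95% binomial interval 26.2 to 30.3), 9.41% (8.47 to 10.4), 4.34% (3.84 to 4.88) and 5.24% (4.52 to 6.04) of cells over the 4 stages, in 4.21% and 4.06% of adult cTEC and in 8.71% and 8.29% of adult mTEC. Uhrf1 was seen in 21.4% of E13.5 cells (19.6 to 23.4), 2.73% of NB cTEC (2.22 to 3.34), 0.701% (0.145 to 2.03) and 1.35% (0.546 to 2.77) of adult cTEC, and 3.97% and 4.02% of adult mTEC. Dnmt1 was seen in 22.9% of E13.5 cells and in 3.33% to 9.44% of the cells of the other libraries. The share of all 10 genes was higher at E13.5 than in both adult cTEC libraries. Dnmt3b was rarest, at 1.996% of E13.5 cells and at most 0.986% elsewhere. Without thinning, Ezh2 was seen in 64.6% of E13.5 cells and in 5.88% and 10.2% of adult cTEC, and Uhrf1 in 55.0% and in 2.03% and 5.87%. Intervals and limits cover counting error only. No cell type here is known to lack these genes, so the share that free RNA gives was not measured, and a cell without a UMI is not a cell without the transcript.

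In resting cells the thinned shares at E13.5 were 19.6% for Ezh2, 18.1% for Dnmt3a, 12.9% for Dnmt1 and 12.03% for Uhrf1. In NB cTEC they were 4.21%, 10.8%, 5.26% and 1.38%. Dnmt3a was the only one of the 4 whose share was no lower in resting cells than in all cells at each of these stages.

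The enzymes were next compared between cycling and resting cells of the same library. The maintenance pair and Ezh2 were higher in cycling cells in all 8 libraries. The ratio of CPM in cycling over resting cells for Uhrf1 was 2.13, 4.30, 4.31 and 5.76 over the 4 stages, 3.52 and 4.13 in adult cTEC, and 4.83 and 2.68 in adult mTEC. For Ezh2 it was between 1.65 (E13.5) and 5.34 (adult cTEC replicate 2), and for Dnmt1 between 1.16 (adult cTEC replicate 1) and 2.73 (E15.5). The lowest Uhrf1 and Ezh2 ratios were those of E13.5, whose resting cells had more of both than the cycling cells of some later libraries.

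**Figure D4:**
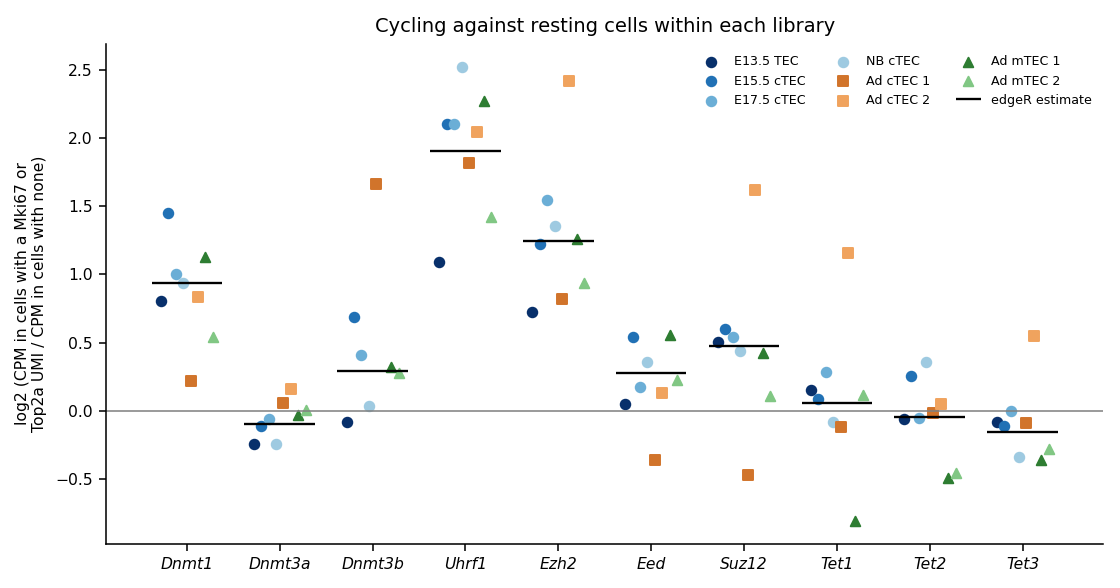
Log2 ratio of CPM in cycling over resting cells for the 10 genes, 1 point per library (circles cortical line below the adult, squares adult cTEC, triangles adult mTEC), with the edgeR estimate as a black line. All 8 points of Uhrf1, Ezh2 and Dnmt1 lie above 0, with estimates of 1.91, 1.24 and 0.94, while those of Dnmt3a, Tet1, Tet2 and Tet3 lie on both sides. The point of Dnmt3b in adult cTEC replicate 2 is left out, since its cycling cells held none.

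With library as a block, edgeR gave a log2 difference of 1.91 ± 0.13 for Uhrf1 (adjusted p = 1.8e-07), 1.24 ± 0.11 for Ezh2 (1.48e-06), 0.94 ± 0.10 for Dnmt1 (2.01e-05) and 0.47 ± 0.11 for Suz12 (0.0135). These 4 of 10 genes passed upward, against 5.79% of the 17408 genes tested. Suz12 was higher in cycling cells of 7 libraries and lower in adult cTEC replicate 1, and its call was lost without E17.5 (0.45, adjusted p = 0.0546) and under the rule of 20 genes (0.29, 0.203). Eed was at 0.28 ± 0.09 (0.0711), higher in 7 libraries as well, and passed by DESeq2 (0.27, 0.00779) and under 4 of the edgeR alternatives. Dnmt3a (−0.10, 95% interval −0.26 to 0.06), Tet1 (0.06, −0.18 to 0.30), Tet2 (−0.05, −0.25 to 0.15) and Tet3 (−0.16, −0.33 to 0.02) did not pass by edgeR, and their intervals leave out a change as large as that of Dnmt1. By DESeq2 Tet3 was lower in cycling cells (−0.18, adjusted p = 0.0309). Dnmt3b (0.29, −0.10 to 0.68) was less well measured. In simulated data 22.5% of the calls of this fit were false, above the nominal 5%, which bears on the smallest difference, that of Suz12.

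Whether the slope with age differed between cycling and resting cells was tested directly over the cortical libraries. None of the 10 genes passed by edgeR, where 0.0988% of 14172 genes did (14 genes). At an unadjusted p under 0.05 there were 2, Uhrf1 (slope in cycling minus resting cells 0.32 ± 0.08, adjusted p = 0.214) and Ezh2 (0.21 ± 0.07, 0.325), and DESeq2 called 0. Both passed without the filter on low counts (adjusted p = 0.000967 and 0.021) and with states set after thinning (0.57, 0.00314, and 0.41, 0.00384), and both turned negative under the rule of 20 genes (−0.28 and −0.19). Hells, the chromatin remodeller that serves DNA methylation, did pass (0.51 ± 0.08, adjusted p = 0.0255).

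Adult cTEC and adult mTEC were then compared, again with a term for the data set. Uhrf1 and Ezh2 were the enzymes that differed, both being higher in mTEC. Uhrf1 was at 5.10 and 9.96 CPM in adult cTEC (7.53 ± 3.44, SD, n = 2) and at 32.6 and 29.2 CPM in adult mTEC (30.9 ± 2.37, n = 2). Ezh2 was at 15.8 and 23.4 CPM in cTEC and at 52.9 and 51.3 CPM in mTEC. The values of neither gene overlapped between the lineages, and mTEC was above cTEC 6.40-fold (exact 95% counting interval 3.55 to 12.9) and 2.94-fold (2.15 to 4.12) for Uhrf1 in data sets 1 and 2, and 3.36-fold (2.38 to 4.88) and 2.19-fold (1.78 to 2.72) for Ezh2.

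**Figure D5:**
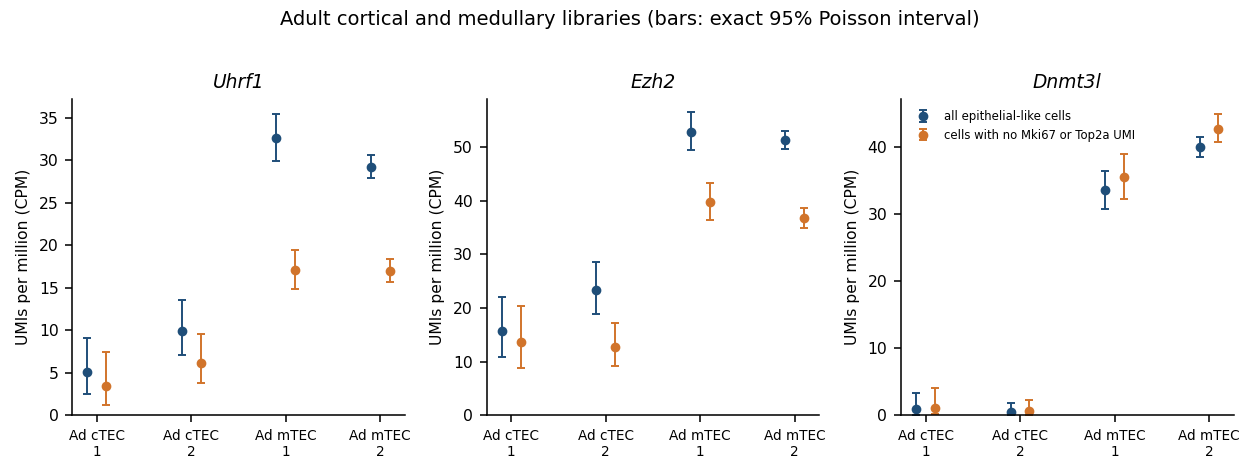
Level (CPM, from 0) of Uhrf1, Ezh2 and Dnmt3l in the 4 adult libraries, over all epithelial-like cells (blue) and resting cells (orange), with exact 95% Poisson intervals. Both mTEC libraries lie above both cTEC libraries for each gene, in resting cells as well, with Dnmt3l over all cells at 33.6 and 40.0 CPM in mTEC and at 0.927 and 0.498 CPM in cTEC (1.15 CPM in resting cells of adult cTEC replicate 1).

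In edgeR the log2 difference of cTEC minus mTEC was −2.10 ± 0.45 for Uhrf1 (adjusted p = 0.000183) and −1.49 ± 0.41 for Ezh2 (0.00313). These 2 of 10 genes passed as lower in cTEC, where 21.0% of the 15626 genes tested did, so the count is near the background. The median over all genes was −0.14. In resting cells both passed again, Uhrf1 at −1.85 ± 0.52 (0.00211) and Ezh2 at −1.58 ± 0.45 (0.00235), against 20.9% of 15064 genes. Resting levels of Uhrf1 were 3.44 and 6.19 CPM in cTEC and 17.1 and 16.98 CPM in mTEC. The fit had 1 residual degree of freedom, so fits without 1 library were made without the term for the data set, and a call lost in them may come from either change. With all 4 libraries and no such term both genes passed, over all cells and in resting cells. Over all cells Uhrf1 passed under all 13 alternatives tried (largest adjusted p = 0.0371 by edgeR or DESeq2), whereas Ezh2 missed the threshold in the fits without adult cTEC replicate 1 (−1.15, adjusted p = 0.0531) or without either mTEC library (0.0725 and 0.0918), and over resting cells under the rule of 20 genes Uhrf1 was at −1.07 (0.308) and Ezh2 at −1.30 (0.0599). The resting call for Uhrf1 was also lost by DESeq2 (−1.92, adjusted p = 0.132). By edgeR it was lost in each fit without 1 of the 4 adult libraries, with differences from −2.47 to −1.44 against −1.85 with all 4. The resting call for Ezh2 was lost in the fits without adult cTEC replicate 2 (−1.64) or adult mTEC replicate 1 (−1.62), against −1.58 with all 4.

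The other 8 genes did not pass between the lineages, and their intervals were wide. Dnmt1 was at 23.6 and 15.7 CPM in cTEC and 18.2 and 16.01 CPM in mTEC (difference 0.10, 95% interval −0.72 to 0.92). Dnmt3a was at 30.6 and 15.2 CPM in cTEC and 20.8 and 23.1 CPM in mTEC (−0.10, −0.93 to 0.74). Eed was at 20.8 and 38.1 CPM in cTEC and 43.8 and 31.3 CPM in mTEC, and its direction differed between the data sets. Tet2 was at 26.9 and 12.5 CPM against 9.63 and 12.3 CPM (0.67, −0.20 to 1.54). Suz12 was at 22.2 and 18.7 CPM in cTEC and at 15.7 and 13.8 CPM in mTEC (0.40, −0.42 to 1.22).

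The mTEC cells were uneven in Uhrf1 and Ezh2. In cells with an Aire UMI (817 of replicate 1 and 4201 of replicate 2) Uhrf1 was 3.17-fold and 1.498-fold above the level of cells without one, and Ezh2 1.68-fold and 1.38-fold. Cells with an Aire UMI were deeper (medians of 12443 against 7279 UMIs, and 13082 against 7252) and more often cycling (24.8% against 7.94%, and 38.5% against 20.8%), and the part of either in these ratios was not tested. Tet3 went the other way, at 0.621 and 0.598 of the level in cells without an Aire UMI. Among clusters of adult mTEC replicate 1, Uhrf1 was at 11.02 CPM in the cluster led by Ccl11, Wfdc18, Ccl21a and Krt14, at 17.6 CPM in that led by S100a8, Reg3g and Csn2, and at 68.5 CPM in the third, which had Aire at 528 CPM and Mki67 at 30.4 CPM. In replicate 2 it ran from 5.06 to 71.6 CPM over 9 clusters, highest in the one with the most Mki67 (96.8 CPM).

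Partners of the 10 enzymes were taken from lists. Of 15 DNA methylation partners tested for the age trend over all cells, 2 fell and 3 rose, where 2.76% of all genes tested passed downward and 4.43% upward. Hells fell by 0.83 ± 0.13 per step (adjusted p = 0.0230 by edgeR), from 169.5 CPM at E13.5 to 9.73 and 13.9 CPM in adult cTEC, and Tdg, the glycosylase that removes oxidised methylcytosine after the Tet step, fell by 0.55 ± 0.09 (0.0269), from 119.6 to 20.8 and 16.4 CPM. Gadd45a (0.93 ± 0.20, 0.0428), Gadd45b (1.28 ± 0.19, 0.0178) and Gadd45g (1.2035 ± 0.14, 0.00985), stress-induced genes that have been linked to demethylation, rose. Gadd45b was at 9.32, 6.95 and 5.84 CPM at E13.5, E15.5 and E17.5, at 82.8 CPM in NB cTEC and at 178.8 and 85.9 CPM in adult cTEC. Gadd45a and Gadd45b were low in the fetal libraries and high from birth on. Gadd45g in resting cells was at 17.95 CPM at E15.5, already at 51.8 CPM at E17.5 and at 190.1 CPM in NB cTEC. Cell isolation differed between fetal and postnatal thymi, so its effect on these genes cannot be told apart from that of stage.

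Of 8 PRC2 partners tested, Jarid2 fell by 0.37 ± 0.08 per step (adjusted p = 0.0477 by edgeR) and Aebp2 rose by 0.47 ± 0.09 (0.0330). Both guide PRC2 to its targets. Jarid2 was at 105.9, 56.6, 33.6 and 42.7 CPM over the 4 stages and at 36.6 and 18.4 CPM in adult cTEC. Aebp2 was at 57.1, 79.4, 69.2 and 147.2 CPM and at 254.8 and 97.6 CPM, so the adult libraries lay far apart. Of 19 genes of polycomb repressive complex 1, none passed by edgeR, 3 had an unadjusted p under 0.05 and DESeq2 called 2. Of 6 opposing enzymes none passed by edgeR, with 2 at an unadjusted p under 0.05 and 1 by DESeq2. Among them Kdm6b, which removes the mark that Ezh2 places, had a slope of 0.59 ± 0.19 (0.113), from 49.1 CPM at E13.5 and 15.3 at E17.5 to 189.5 and 86.7 CPM in adult cTEC.

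In resting cells Hells (−0.89), Tdg (−0.49), Gadd45b (1.25), Gadd45g (1.14) and Aebp2 (0.49) passed again by edgeR, and Gadd45a and Jarid2 did not, where 0.956% of all genes passed downward and 3.32% upward. Without adult cTEC replicate 1 none of the 7 partner calls over all cells and none of the 5 in resting cells was kept, with adjusted p by edgeR of 0.0965 (Gadd45a) to 0.210 (Jarid2) and 0.155 (Gadd45g) to 0.285 (Aebp2). In the fit of fetal against postnatal libraries 1 and 0 of them were kept, and in data set 1 alone 3 and 1. In fits without 1 of the other libraries, 1 (without E15.5) to 4 (without E13.5) of the 7 were kept over all cells. In resting cells these fits kept 1 (without E17.5) to 3 (without E13.5, or without adult cTEC replicate 2) of the 5. Between states, Hells was higher in cycling cells (1.79 ± 0.19, adjusted p = 1.44e-05 by edgeR), and so was Uhrf2 (0.46 ± 0.08, 0.00219), by much less than Uhrf1. Of 17 DNA methylation partners 4 passed as higher and 1 as lower in cycling cells, and of 8 PRC2 partners 1 and 1. Of 19 genes of polycomb repressive complex 1, 1 passed as lower, and of 6 opposing enzymes 0 passed. Of all genes 5.79% passed upward and 6.0% downward.

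For scale, all 14 replication genes were higher in cycling cells (median 1.67), 8 of 14 replication genes fell with age (median slope −0.62), and 3 of 14 in resting cells. None of these falls was kept without adult cTEC replicate 1 in either trend. In resting cells 0 of the 3 were also kept without E13.5, E15.5, E17.5 or adult cTEC replicate 2, in data set 1 alone and under the rule of 20 genes. Without NB 1 was kept. Over all cells 2 of the 8 were kept without E15.5 and all 8 without NB. Summed over the 14, their level was 1161, 528.1, 298.9 and 317.3 CPM over the 4 stages and 145.5 and 231.9 CPM in adult cTEC. In resting cells the sum was still 716.9 CPM at E13.5 and between 118.0 and 228.2 CPM in the other cortical libraries, so cells without Mki67 and Top2a UMIs carried replication transcripts too, at E13.5 most of all. Their part in the resting levels of Uhrf1 was not tested beyond the rule of 20 genes given above.

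Among the partners, Dnmt3l, the cofactor without catalytic activity of the de novo methyltransferases, known from germ cells, was higher in adult mTEC than in adult cTEC. It was at 33.6 and 40.0 CPM in adult mTEC (558 and 2692 UMIs) and had 2 UMIs in each adult cTEC library, a ratio of 36.2 (exact 95% counting interval 9.98 to 300) in data set 1 and 80.3 (22.2 to 663) in data set 2. Libraries below the adult held between 1 and 3 UMIs each. edgeR gave a log2 difference of −5.86 ± 0.63 (adjusted p = 2.0e-11). Within mTEC, cells with an Aire UMI had 51.5 and 45.1 CPM and cells without one 2.31 and 13.7 CPM. In replicate 1 Dnmt3l was at 80.1 CPM in the cluster led by S100a8, Reg3g and Csn2, at 20.3 CPM in the cluster with the most Uhrf1 and at 1.26 CPM in the one led by Ccl11 and Krt14, so its order over the 3 clusters differed from that of Uhrf1. Dnmt3l (chr10:78041947-78063622, plus strand) and Aire (chr10:78030022-78043610, minus strand) overlap at the starts of both genes, whereas the libraries were 3′ libraries. Whether counting used the strand is not given in the sources used here. The part of reads from the overlap in these values was not tested.

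Dppa3, a germ-cell gene whose product displaces Uhrf1 from chromatin, was singled out after its values were seen. It was at 72.4 and 85.3 CPM in adult mTEC (1203 and 5742 UMIs) and had 4 and 0 UMIs in adult cTEC. mTEC was above cTEC 39.1-fold (exact 95% counting interval 15.2 to 144) in data set 1. In data set 2, with no UMI in cTEC, it was at least 114-fold above a floor of 3 UMIs, and the exact 95% counting interval began lower, at 92.8-fold. The fitted log2 difference was −6.91 ± 0.64 (adjusted p = 2.49e-13 by edgeR) and depends on the prior count. Its level in the same 3 clusters of replicate 1 was 215.3, 3.20 and 1.81 CPM. Of all genes tested between the lineages, 11.2% passed as higher in cTEC and 21.0% as higher in mTEC, and the counts of the lists are given beside these shares. Among the 6 opposing enzymes 1 passed, Kdm6b, which was higher in cTEC than in mTEC (1.23 ± 0.37, adjusted p = 0.0084 by edgeR), at 189.5 and 86.7 against 75.3 and 36.3 CPM. Of 19 genes of polycomb repressive complex 1, 3 were higher in cTEC (Pcgf2 at 2.19, Cbx6 at 1.87 and Ring1 at 1.0023 on the log2 scale) and 1 was higher in mTEC (Pcgf5 at −2.12). Of 7 PRC2 partners tested Phf1 was higher in cTEC (1.82), and of 17 DNA methylation partners Mbd2 (1.23) and Zfp57 (2.87) were higher in cTEC and Gadd45b (−1.88), Dnmt3l and Dppa3 in mTEC. Apart from Kdm6b, Gadd45b and Dnmt3l, these genes are named because the counts are small, after their values were seen. Of 14 replication genes 8 were higher in mTEC by edgeR (median −1.28), and 4 of 13 in resting cells. DESeq2 called 3 replication genes over all cells, all higher in mTEC, and 0 in resting cells. Over all cells it called 0 PRC2 partners and 3 DNA methylation partners, all higher in mTEC. It called 2 genes of polycomb repressive complex 1 as higher in cTEC and 1 as higher in mTEC, and 1 opposing enzyme. Of all 15626 genes 2597 passed by that tool.

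The genes of mean CPM of at least 20 whose pattern over the 8 libraries was most like that of an enzyme are given for 8 of the 10. By Pearson's r of log2(CPM + 1) they were Tyms (0.994) and Tmpo (0.991) for Uhrf1, and Tmpo (0.987) and Lsm6 (0.982) for Ezh2. For Eed they were Pcna (0.9601) and Tmed2 (0.924). For Tet1 they were Dnmt3a (0.990) and Ranbp3 (0.989), and for Dnmt3a Ranbp3 (0.988) and Sart3 (0.988). For Tet3 they were Rnf20 (0.994) and Wipi2 (0.993), and for Dnmt3b Usp10 (0.973) and Parp1 (0.972). For Suz12 they were Ppm1b (0.982) and Cbx5 (0.9802). These were the highest of 5990 genes over 8 points that share libraries and a strong E13.5 value, and are given as a description.

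By GENCODE M21 positions on GRCm38, Uhrf1 (ENSMUSG00000001228) lies at chr17:56303321-56323486, Ezh2 (ENSMUSG00000029687) at chr6:47530139-47595341, Dnmt1 (ENSMUSG00000004099) at chr9:20907209-20959888, Suz12 (ENSMUSG00000017548) at chr11:79993106-80034123 and Dnmt3l (ENSMUSG00000000730) at chr10:78041947-78063622.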

How the data were processed

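The authors made Chromium v2 3′ libraries and deposited raw UMI counts per gene and cell. Per the labels, bcl2fastq 2.17, STAR 2.5.1b, Cell Ranger 2.0.1 and build mm10 were used, whereas the E17.5 and second adult matrices state Cell Ranger 3.0.1 in their headers. The labels give the tissue as thymus although a protocol line names bone marrow. The limits of the study (at most 5% mitochondrial UMIs and 5000 genes) were applied, cells were clustered per data set (Leiden, leidenalg 0.10.2, resolution 0.8) and clusters with a fold of at least 4 for most markers of another cell type, and at least 3 of them, left out. No doublet caller was run. Counts were summed per library and, for states, per library and state. Tests used edgeR 4.0.16 (quasi-likelihood, TMM, filterByExpr, Benjamini-Hochberg over all genes tested), with DESeq2 1.42.0 as an alternative. Replicates are libraries, and where nothing says that they came from separate animals the p-values measure only the spread between them. Standard errors are the estimate over the root of F. Stages below the adult have 1 library.

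Fits were tested on simulated counts with 200 changed genes: between 176 and 200 were recovered, and 8.76% of the calls of the age trend over all cells and 19.0% of those of the interaction were false. CPM are UMIs scaled to a common library total. The members and lists were chosen with earlier results of these data known. Named partners were those past the threshold in an age trend with an average log2 CPM above 5, at most 12, with Ezh1, Dnmt3l, Uhrf2 and Kdm6b. Pairs of libraries shared between 0 and 61 cell barcodes, with E13.5 and E15.5 at 18 against 9.59 given by their sizes, and E15.5 and adult mTEC replicate 2 at 36 against 27.2. Other scalings, filters, cell selections and state rules, and leaving out each library, were tried as alternatives. The genes most like Dnmt1 and Tet2 in pattern are not reported here.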

Additional observations from a re-analysis of the deposited data

Results flagged for a closer look

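One result stood out because every library of one group moved in the opposite direction to every library of another. The log2 difference of cycling minus resting cells for Dnmt3a was negative in all 3 fetal libraries (mean −0.14) and positive in both adult cTEC libraries (mean 0.11), a difference of −0.25 between the means. NB cTEC, in neither group, was at −0.24, and the cycling cells of adult cTEC held 13 Dnmt3a UMIs in each library (exact 95% Poisson intervals of 16.8 to 53.8 and 8.85 to 28.4 CPM). This difference was not tested on its own, and the slope of Dnmt3a in cycling minus resting cells over the cortical libraries was −0.018 ± 0.049 (SE, by edgeR, with an unadjusted p of 0.723 in that fit across all genes).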

How the results depend on the processing

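Of the 10 genes, 3 passed in the age trend over all cells, and DESeq2 called 6, a fit of fetal against postnatal libraries 0 and fits without 1 library 0 to 2. In resting cells 1 passed, and DESeq2 called 3, the rule of 20 cycle genes 2, a fit with no term for the data set 2, fetal against postnatal 0 and fits without 1 library 0 to 1. In that trend DESeq2 called 1668 of the 13181 genes tested. Between lineages 2 passed over all cells, 1 to 2 without 1 library, and 2 in resting cells, with 1 by DESeq2, 0 under the rule of 20 genes and 0 to 1 without 1 library. In the interaction 0 passed, and 2 did without the filter on low counts or with states set after thinning. For the adult groups the data set is also the replicate number, and leaving out this block kept both lineage counts. The lineage fits without 1 library also lack this block, since no degree of freedom was left for it. For cycling against resting cells 4 passed, and DESeq2 called 6 and the other fits 3 to 5. Of those 6, 5 were higher and 1 (Tet3) was lower in cycling cells, where DESeq2 called 3613 of the 17408 genes tested. The cause of these changes was not tested.

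Directions that turned were those of genes that had not passed. The slope of Eed was 0.019 in resting cells with no term for the data set and ran, without 1 library, from −0.20 to 0.095 over all cells and from −0.16 to 0.19 in resting cells. Between lineages over all cells Tet3 was at −0.0102 without the filter and Tet1 at 0.046 with no term for the data set, and without 1 library Dnmt1 ran from −0.12 to 0.28, Dnmt3a from −0.53 to 0.29, Eed from −1.03 to 0.037, Tet1 from −0.66 to 0.53 and Tet3 from −0.60 to 0.63. In resting cells Suz12 was at −0.27 under the rule of 20 genes and Tet3 at 0.037 with no term for the data set, and without 1 library Dnmt1 ran from −0.0046 to 0.57, Dnmt3a from −0.55 to 0.30, Eed from −0.82 to 0.15, Suz12 from −0.052 to 0.59, Tet1 from −0.998 to 0.53 and Tet3 from −0.81 to 0.57. For cycling against resting cells Tet3 was at 0.031 under the rule of 20 genes and Tet2 at 0.077 in the 6 cortical libraries, and without 1 library Tet2 ran from −0.11 to 0.016. The interaction values of Uhrf1 and Ezh2 were −0.28 and −0.19 under the rule of 20 genes.

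Counts over all genes moved more. The age trend called 1030 genes over all cells, against 2738 by DESeq2, 13 for fetal against postnatal, 411 in data set 1 alone and, without 1 library, 10 (adult cTEC replicate 1), 181 (E15.5), 427 (E17.5) and 464 (adult cTEC replicate 2). In resting cells it called 564, against 1668, 0 and 181, and between 0 and 932 without 1 library. The lineage fit called 5035 and 4685 (resting), against 2597 and 2104 by DESeq2, 2394 under the rule of 20 genes, and 1799 to 2842 and 872 to 2493 without 1 library. Cycling against resting called 2053, against 3613 by DESeq2, 1314 under the rule of 20 genes and 3216 after thinning, and the interaction 14, against 237, 45, 26, 105 and 127 under no filter, DESeq2, fewer genes, 20 genes and thinning. All alternatives of the interaction, and the fits with the haemoglobin-led cluster kept or the E13.5 cluster led by Hhex left out, were chosen after seeing the data, and leaving out libraries was not run for the interaction. Depth was lowest in adult cTEC replicate 1, without which no member passed in either age trend.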
